A study of Mus musculus with 8 samples.

Results

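The keratin genes encode the intermediate filament proteins of epithelial cells. They were examined in medullary thymic epithelial cells (mTECs) of mice that lack the kinase Hipk2 in thymic epithelium, and in mTECs of wild-type mice. A gene was counted as a member when its symbol in the probe table was Krt followed by a number and an optional final letter. Genes for keratin-associated proteins and Krtdap were not counted. This gave 48 keratin genes, carried by 61 probes, among 22446 named genes and 46089 probes. Of the 48, 38 were tested, as were 14392 genes in all.

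The 8 Illumina bead arrays formed 4 groups of 2 biological replicates. These were CD80high mTECs of mice with a knockout of Hipk2 specific to thymic epithelial cells (ko), CD80high mTECs of wild-type controls of the matings (wt), CD80low mTECs of ko mice, and CD80low mTECs of wt mice. The labels give neither the Cre driver of the knockout nor the age of the mice, and name no other allele. They do not say whether animals were pooled. CD80, a costimulatory ligand for T cells, is abundant on mTECs that have matured. The CD80high against CD80low comparison therefore asks how keratin transcripts differ between sorts with more and with fewer such cells. The ko against wt comparison asks whether keratin transcripts differ when Hipk2 is lost.

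Keratin filaments are built from pairs of a type I and a type II keratin, and each kind of epithelium uses its own pairs. Krt8 and Krt18 are the pair of simple epithelia, and Krt5 and Krt14 are the pair of basal cells in stratified epithelia. Suprabasal keratins such as Krt10 mark cells that have left the basal layer, Krt16 and Krt17 are found in epithelia under stress and in skin appendages, and hair and inner root sheath keratins build the hair shaft and its sheath. In the thymus, Krt5 and Krt14 mark the medulla and Krt8 and Krt18 are strong in the cortex. Mature mTECs also transcribe many genes that are otherwise restricted to single tissues, and mTECs past the Aire stage can resemble cornifying keratinocytes.

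Most genes of the family lie in a type I and a type II gene cluster. The 300 bases around a gene's start, 250 before and 50 after, were available from RefSeq (GRCm38.p6) for 34 of the 48 members, in 35 windows. A window is printed here for 5 genes whose levels are described below. Krt20, Krt73 and Krt10 hold TATAAA, the letters of a TATA box, near the start, and Krt79 and Krt5 do not hold these exact letters. Krt20, Krt73, Krt10 and Krt79 were higher in CD80high cells, and Krt5 was lower. Only exact letters were searched, so near variants, such as gataaa in the Krt5 window, are not marked. All 5 are on the minus strand, at chr11:99438104-99438403 (Krt20), chr15:101802311-101802610 (Krt73), chr11:99389315-99389614 (Krt10), chr15:101940275-101940574 (Krt79) and chr15:101712856-101713155 (Krt5). They are written 5′ to 3′ on the gene's strand, and the capitals mark TATAAA.
Krt20: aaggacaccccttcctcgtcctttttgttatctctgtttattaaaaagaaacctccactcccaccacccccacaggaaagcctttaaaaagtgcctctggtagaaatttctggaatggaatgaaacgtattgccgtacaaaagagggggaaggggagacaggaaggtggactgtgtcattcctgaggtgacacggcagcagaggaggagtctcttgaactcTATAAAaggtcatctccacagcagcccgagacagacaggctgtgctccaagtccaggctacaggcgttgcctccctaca
Krt73: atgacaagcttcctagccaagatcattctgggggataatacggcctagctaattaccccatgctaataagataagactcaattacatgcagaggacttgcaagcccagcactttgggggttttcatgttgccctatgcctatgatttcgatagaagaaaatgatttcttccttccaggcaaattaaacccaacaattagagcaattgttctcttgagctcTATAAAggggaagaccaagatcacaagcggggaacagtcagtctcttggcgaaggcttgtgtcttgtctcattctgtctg
Krt10: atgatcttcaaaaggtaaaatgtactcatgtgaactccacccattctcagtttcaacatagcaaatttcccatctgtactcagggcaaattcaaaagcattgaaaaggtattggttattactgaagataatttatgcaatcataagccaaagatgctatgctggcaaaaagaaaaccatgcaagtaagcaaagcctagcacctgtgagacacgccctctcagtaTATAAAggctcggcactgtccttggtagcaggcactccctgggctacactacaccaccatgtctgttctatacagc
Krt79: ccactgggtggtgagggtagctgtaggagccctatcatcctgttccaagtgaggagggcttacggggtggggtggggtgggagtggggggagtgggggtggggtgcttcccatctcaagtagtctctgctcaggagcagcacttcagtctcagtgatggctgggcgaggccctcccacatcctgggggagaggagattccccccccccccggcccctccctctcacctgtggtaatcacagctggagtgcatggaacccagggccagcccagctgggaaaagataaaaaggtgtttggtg
Krt5: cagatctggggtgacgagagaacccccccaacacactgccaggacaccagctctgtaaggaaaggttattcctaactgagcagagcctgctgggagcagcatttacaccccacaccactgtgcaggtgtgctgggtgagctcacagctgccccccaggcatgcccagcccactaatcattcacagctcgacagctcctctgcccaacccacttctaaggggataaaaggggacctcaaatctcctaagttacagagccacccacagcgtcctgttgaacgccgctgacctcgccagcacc

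Levels are given as log2 of the background-corrected, quantile-normalised intensity, called the log2 level below. Each probe has its own scale, so levels are compared between samples and never between genes. A change was called where limma's adjusted p (Benjamini-Hochberg over all tested genes) was under 0.05. Between 20434 and 22974 probes per array lay above background (44.3% to 49.8%). Of the 48 keratins, 36 and 38 lay above background on the ko CD80high arrays and 39 and 39 on the wt CD80high arrays, against 23 and 27 on the ko CD80low and 24 and 27 on the wt CD80low arrays. On all 8 arrays 17 keratins were above background, and on no array 4, the hair keratins Krt31, Krt39, Krt74 and Krt87. Cd80 itself was higher in CD80high cells by 4.80 (ko) and 4.82 (wt) on the log2 scale, and Aire, the transcriptional regulator of self-antigen expression, by 4.60 (ko) and 4.51 (wt). The probe for Epcam, an epithelial surface marker, lay close to background on all 8 arrays (log2 levels of 5.25 to 5.59 in CD80high and 4.88 to 5.58 in CD80low cells). The brighter of the 2 tested Hipk2 probes did not differ between ko and wt by a called amount, by 0.24 ± 0.265 (SE) in CD80high and -0.12 ± 0.265 (SE) in CD80low cells on the log2 scale. The dimmer one averaged a log2 level of 5.60 in ko and 5.78 in wt CD80high cells, and 6.03 in ko and 6.54 in wt CD80low cells, differences of -0.19 ± 0.212 (SE) and -0.51 ± 0.212 (SE) that were not called either (limma adjusted p over probes of 1.00 and 0.705). Where the 4 Hipk2 probes lie relative to the deleted part was not known here, so these values do not check the labels.

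In CD80high against CD80low cells, all 9 tested suprabasal keratins and 9 of the 14 tested hair keratins (of 21 on the array) were called higher in both genotypes, while the basal pair Krt5 and Krt14 and the simple keratins Krt7 and Krt19 were called lower. In ko mTECs 26 of the 38 tested keratins were called higher and 4 lower, beside 22.1% and 18.8% of all tested genes. In wt mTECs 28 were called higher and 5 lower, beside 22.4% and 19.4%. Many members passed the filter on dim probes through their CD80high arrays alone, so these counts are no measure of the whole family. Over all 48 members with no filter, the median log2 change was 0.78 in ko and 1.06 in wt mTECs, against -0.04 and -0.03 over all 22446 genes. A fitted change against a group with no array above background is not a measured size, so these medians were also taken with such members at their bound, and with members dim in both groups left out. They were then 1.14 over 40 members in ko and 1.20 over 41 members in wt mTECs, with 12 members at their bound in each. Leaving out members dim in both groups can itself raise the median. No value over all genes was taken in this way, so these medians have nothing to be set against. In these bulk samples, fewer cells of a type and less RNA per cell cannot be told apart.

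Across both genotypes 24 keratins were called higher in each and 4 lower in each. Krt15, Krt18, Krt28, Krt33b and Krt35 passed the test in wt mTECs and not in ko mTECs, and Krt26 and Krt32 passed in ko mTECs and not in wt mTECs. The test of the difference between the genotypes called 0 keratins, as reported below, so these 7 genes are not shown to differ between the genotypes. Krt6b, Krt8 and Krt17 passed in neither.

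**Figure D1:**
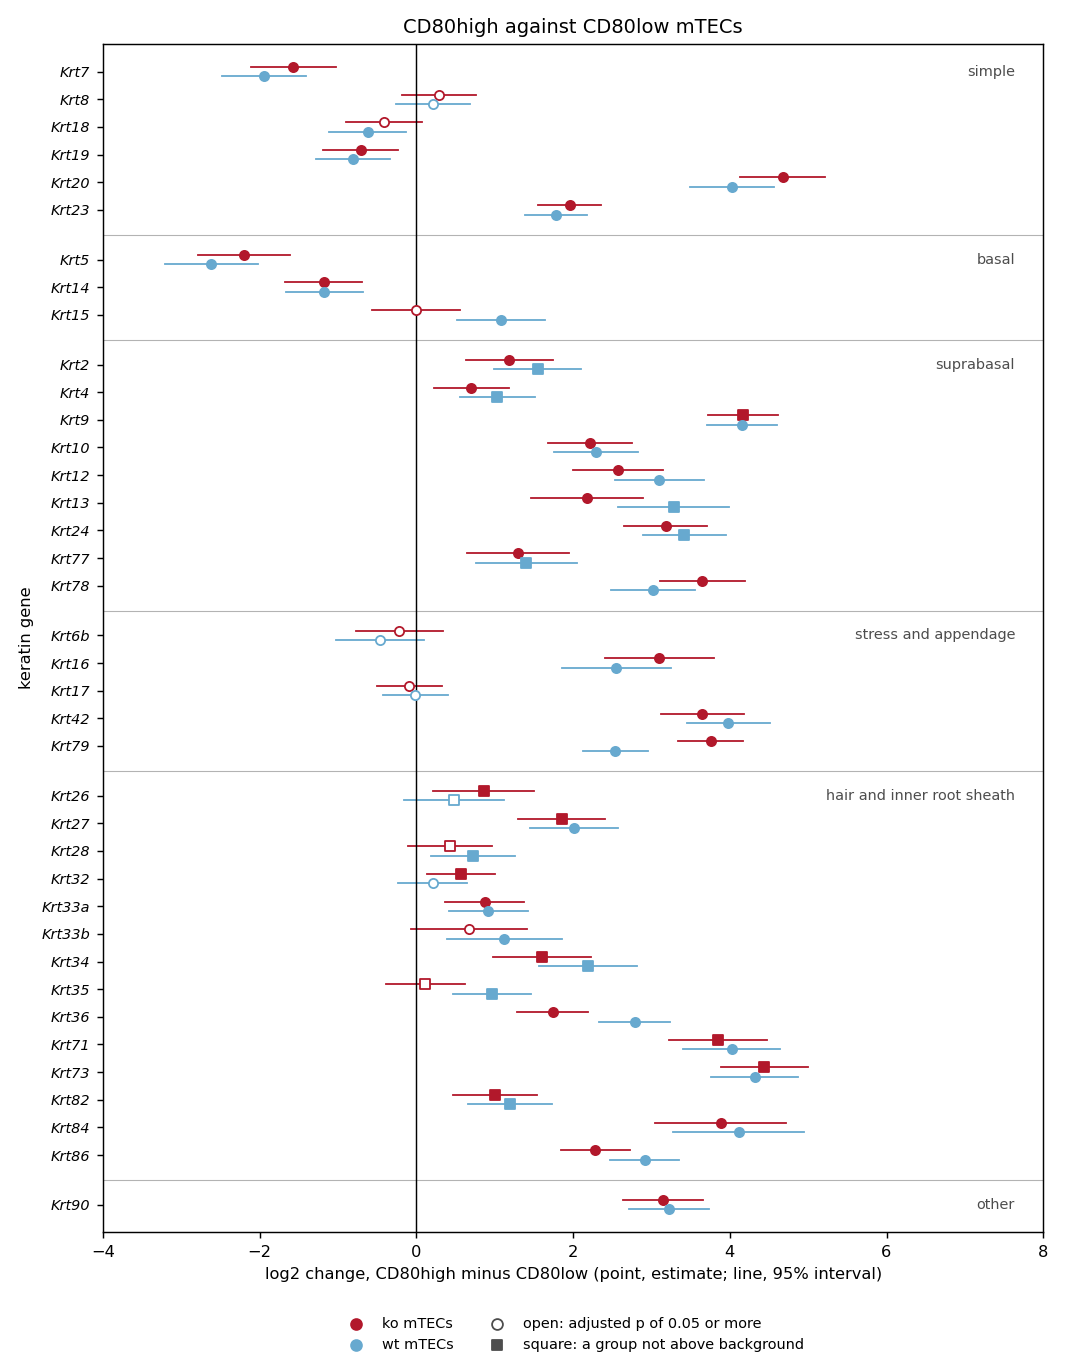
Log2 change between CD80high and CD80low mTECs (x axis) for the 38 tested keratins (y axis, grouped by class), in ko (red) and wt (blue) mTECs, with points for the estimates and lines for 95% intervals. Squares mark fitted values in which 1 or both groups had no array above background by any probe of the gene, which are neither measured sizes nor bounds. Krt86 in wt mTECs is drawn as a circle although the probe used lay below background on both wt CD80low arrays. All 9 suprabasal keratins lie right of zero in both genotypes with filled points, while Krt5, Krt14, Krt7 and Krt19 lie left of it.

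Krt5 had log2 levels of 9.35 and 9.71 in ko and 9.14 and 9.05 in wt CD80high cells, against 11.38 and 12.09 in ko and 11.51 and 11.92 in wt CD80low cells. The 4 CD80high arrays all lay below the 4 CD80low arrays. The log2 change was -2.20 ± 0.266 (SE) in ko and -2.62 ± 0.266 (SE) in wt mTECs, with limma adjusted p of 9.64e-05 and 2.9e-05. Its filament partner Krt14 had log2 levels of 13.34 and 13.31 in ko and 13.37 and 13.28 in wt CD80high cells, against 14.42 and 14.60 in ko and 14.21 and 14.79 in wt CD80low cells. Krt14 thus also fell in CD80high cells without overlap, by 1.18 on the log2 scale in ko mTECs (limma adjusted p = 0.00178) and by 1.18 in wt mTECs (limma adjusted p = 0.00179). Both members of the pair remained above background on all 8 arrays. Krt15, a keratin of basal cells and hair follicle stem cells, did not follow them. Its log2 levels were 7.85 and 7.66 in ko and 8.47 and 8.04 in wt CD80high cells, against 7.44 and 8.08 in ko and 7.11 and 7.24 in wt CD80low cells. It was higher in wt CD80high cells by 1.08 (limma adjusted p = 0.00607), and the ko change was 0.00 (limma adjusted p = 0.991), with ko arrays that overlapped. Without wt CD80high replicate 1 the wt call was lost (limma adjusted p = 0.0644).

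Among the 6 simple keratins, Krt20 and Krt23 rose, Krt7 and Krt19 fell, and Krt8 was not called in either genotype. Krt20, a keratin of intestinal epithelium, urothelium and Merkel cells, had log2 levels of 9.87 and 10.17 in ko and 10.04 and 10.40 in wt CD80high cells, against 5.45 and 5.24 in ko and 5.91 and 6.47 in wt CD80low cells. It was above background on both wt CD80low arrays and on 1 of the 2 ko CD80low arrays. The change was 4.67 ± 0.243 (SE) in ko and 4.03 ± 0.243 (SE) in wt mTECs. Krt23 had log2 levels of 11.79 and 11.82 in ko and 12.12 and 12.27 in wt CD80high cells, against 9.86 and 9.84 in ko and 10.38 and 10.45 in wt CD80low cells. Its change was 1.96 in ko and 1.78 in wt mTECs, with limma adjusted p of 1.52e-05 and 2.82e-05.

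Krt7, a keratin of ducts and glands, had log2 levels of 9.62 and 9.63 in ko and 9.57 and 9.84 in wt CD80high cells, against 10.89 and 11.50 in ko and 11.47 and 11.83 in wt CD80low cells. The groups did not overlap, and the change was -1.57 (limma adjusted p = 0.000527) in ko and -1.95 (limma adjusted p = 0.00012) in wt mTECs. Krt19, a type I keratin of simple and ductal epithelia, changed less, by -0.71 in ko and -0.81 in wt mTECs. That call was lost in ko mTECs without ko CD80low replicate 1 or without ko CD80high replicate 2 and in wt mTECs without either replicate 2, with limma adjusted p values of 0.0844 to 0.155 in ko and 0.0579 to 0.0981 in wt mTECs over the settings that lost it. Krt8 had log2 levels of 13.53 and 13.89 in ko and 13.67 and 13.90 in wt CD80high cells, against 13.26 and 13.59 in ko and 13.55 and 13.60 in wt CD80low cells. Its change was 0.28 ± 0.213 (SE) in ko and 0.21 ± 0.213 (SE) in wt mTECs, and neither passed the test. Krt18, the partner of Krt8, had log2 levels of 12.06 and 12.16 in ko and 11.69 and 12.20 in wt CD80high cells, against 12.46 and 12.59 in ko and 12.43 and 12.69 in wt CD80low cells. Its change was -0.42 (limma adjusted p = 0.156) in ko and -0.62 (limma adjusted p = 0.0435) in wt mTECs. The wt call was lost in 9 of 19 alternative settings, and leaving out any 1 array other than wt CD80high replicate 2 was enough (limma adjusted p of 0.0501 to 0.318 over the 9).

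**Figure D2:**
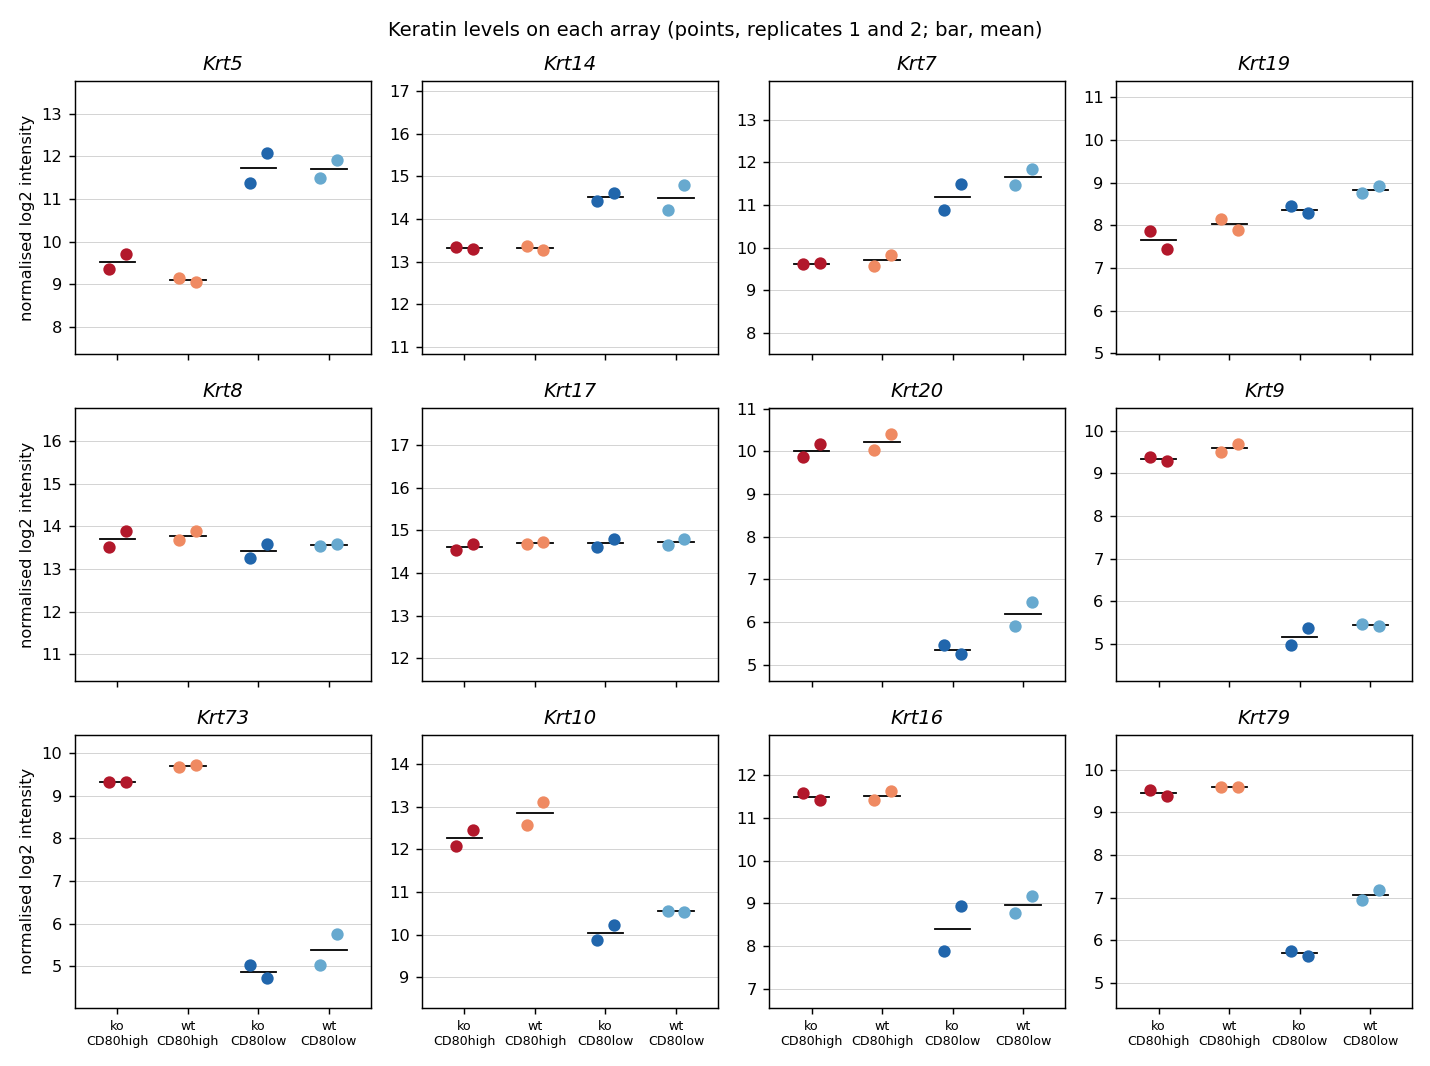
Normalised log2 intensity (y axis) of 12 keratins on each of the 8 arrays, with 2 points per group for the replicates and a bar for their mean; ko CD80high, wt CD80high, ko CD80low and wt CD80low run from left to right. Krt5, Krt14, Krt7 and Krt19 sit lower on the CD80high arrays, Krt20, Krt9, Krt73, Krt10, Krt16 and Krt79 sit higher there, and Krt8 and Krt17 lie within 1 unit on all arrays.

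All 9 tested suprabasal keratins, Krt2, Krt4, Krt9, Krt10, Krt12, Krt13, Krt24, Krt77 and Krt78, were called higher in CD80high cells of both genotypes. The share among all tested genes was 22.1% in ko and 22.4% in wt mTECs. Krt2, Krt4, Krt13, Krt24 and Krt77 passed the filter through their CD80high arrays alone, so a call lower was hardly possible for them. Krt1, left out by the rule on symbols and described below, was called in neither genotype. In ko mTECs the 8 other than Krt9 had log2 changes of 0.70 to 3.65. In wt mTECs Krt9, Krt10, Krt12 and Krt78 had log2 changes of 2.29 to 4.15, and the other 5, with neither wt CD80low array above background, were at least 1.71-fold (Krt4) to at least 8.46-fold (Krt13) higher. Krt9, a keratin of palm and sole epidermis, had log2 levels of 9.39 and 9.29 in ko and 9.50 and 9.69 in wt CD80high cells, against 4.98 and 5.36 in ko and 5.45 and 5.43 in wt CD80low cells. Neither ko CD80low array was above background, so the ko difference was at least 15.3-fold higher (limma adjusted p = 5.94e-07). Such a bound sets the CD80high mean against the lowest signal counted as above background on each CD80low array. In wt mTECs the fold was 17.8 (limma adjusted p = 6.11e-07).

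Krt10, the type I keratin of the first suprabasal layers of epidermis, had log2 levels of 12.08 and 12.45 in ko and 12.58 and 13.11 in wt CD80high cells, against 9.87 and 10.22 in ko and 10.55 and 10.54 in wt CD80low cells. All 4 CD80low arrays were well above background, and the change was 2.22 ± 0.240 (SE) in ko and 2.29 ± 0.240 (SE) in wt mTECs. Krt13, a keratin of oesophagus and other moist stratified epithelia, had log2 levels of 7.75 and 7.58 in ko and 8.60 and 8.34 in wt CD80high cells, against 4.94 and 6.03 in ko and 5.39 and 4.99 in wt CD80low cells. Only 1 of the 4 CD80low arrays, a ko array, was above background. In wt mTECs it was at least 8.46-fold higher (limma adjusted p = 2.22e-05), and in ko mTECs the change was 2.18 ± 0.320 (SE) (limma adjusted p = 0.000367). Its partner Krt4 was called higher by 0.70 on the log2 scale in ko mTECs, and was at least 1.71-fold higher in wt mTECs. The ko call of Krt4 was lost in 6 of 19 settings, 3 of which leave out 1 array (ko CD80low replicate 2 or either ko CD80high replicate), with limma adjusted p of 0.0522 to 0.197 there.

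Krt12, the keratin of corneal epithelium, had log2 levels of 9.24 and 9.21 in ko and 9.67 and 9.39 in wt CD80high cells, against 6.40 and 6.91 in ko and 6.12 and 6.74 in wt CD80low cells. It was higher by 2.57 in ko and 3.10 in wt mTECs. Krt24 and Krt78 were both above background on every CD80high array. Krt78 was higher by 3.65 in ko and 3.02 in wt mTECs. Krt24 was higher by 3.18 in ko mTECs, and in wt mTECs, where neither CD80low array was above background, it was at least 6.76-fold higher.

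Of the 7 stress and appendage keratins 5 were tested, and 3 of these, Krt16, Krt42 and Krt79, were called higher in CD80high cells of both genotypes. The share among all tested genes was 22.1% in ko and 22.4% in wt mTECs. Krt16, induced in wounded epidermis, had log2 levels of 11.59 and 11.42 in ko and 11.41 and 11.63 in wt CD80high cells, against 7.88 and 8.93 in ko and 8.77 and 9.17 in wt CD80low cells. It was above background everywhere, and the groups did not overlap. The change was 3.10 ± 0.312 (SE) in ko and 2.55 ± 0.312 (SE) in wt mTECs. Krt42 had changes of 3.65 in ko and 3.98 in wt mTECs, and its 3 probes moved the same way. Krt17 stood at log2 levels of 14.54 to 14.80 on all 8 arrays, and its changes of -0.09 in ko and -0.02 in wt mTECs passed no test. Its deposited intensity, 24155 to 28301, lay near the highest values of the arrays, 29782 to 37201. Krt6b gave changes of -0.22 in ko and -0.46 in wt mTECs on the brighter of its probes, and neither was called. A dimmer Krt6b probe, above background on 5 arrays, was not called in ko and was called higher in wt mTECs (limma adjusted p over probes of 0.251 and 0.00655), so the probes disagree. Krt6a, a near-identical copy of Krt6b, was above background on 1 array and not tested.

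Krt79, a keratin of hair follicle openings and sebaceous ducts in mouse skin, had log2 levels of 9.52 and 9.39 in ko and 9.59 and 9.60 in wt CD80high cells, against 5.76 and 5.63 in ko and 6.95 and 7.17 in wt CD80low cells. It was above background on every array. The change was 3.76 ± 0.187 (SE) in ko and 2.54 ± 0.187 (SE) in wt mTECs, with limma adjusted p of 5.94e-07 and 3.62e-06.

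Hair and inner root sheath keratins formed the biggest class, with 21 members of which 14 were tested. In CD80high cells 11 of the 14 were called higher in ko and 12 in wt mTECs, and 0 were called lower. Of all tested genes, 22.1% were called higher and 18.8% lower in ko, and 22.4% and 19.4% in wt mTECs. Many of the 14 passed the filter through their CD80high arrays alone, so a call lower was hardly possible for them. Krt73, of the inner root sheath, had log2 levels of 9.33 and 9.31 in ko and 9.67 and 9.73 in wt CD80high cells, against 5.03 and 4.73 in ko and 5.02 and 5.75 in wt CD80low cells. Neither ko CD80low array and 1 of the 2 wt CD80low arrays were above background. Krt73 was at least 15.0-fold higher in ko CD80high cells (limma adjusted p = 8.8e-07) and 19.9-fold higher in wt CD80high cells (limma adjusted p = 1.06e-06). Krt71, also of the inner root sheath, had log2 levels of 9.20 and 8.58 in ko and 9.39 and 8.93 in wt CD80high cells, against 4.97 and 5.11 in ko and 4.84 and 5.43 in wt CD80low cells. It was at least 11.1-fold higher in ko and 16.2-fold higher in wt CD80high cells.

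Among the keratins of the hair shaft, nail and tongue papillae, Krt84 had log2 levels of 9.37 and 9.88 in ko and 9.86 and 10.11 in wt CD80high cells, against 5.12 and 6.36 in ko and 5.56 and 6.19 in wt CD80low cells. Its change was 3.89 ± 0.376 (SE) in ko and 4.11 ± 0.376 (SE) in wt mTECs. Krt36 rose by 1.74 in ko and 2.79 in wt mTECs. Krt86 rose by 2.28 in ko and 2.91 in wt mTECs. In wt mTECs the probe used lay below background on both CD80low arrays and the second Krt86 probe above it on 1, so the wt value is not a measured size. Krt34, above background on no CD80low array, was at least 2.15-fold higher in ko and at least 2.57-fold higher in wt CD80high cells. Krt27 was at least 2.72-fold higher in ko CD80high cells, and in wt mTECs, where 1 of the 2 CD80low arrays was above background, it was higher by 2.01 on the log2 scale. Of the other 7 tested hair keratins, Krt33a was higher by 0.87 in ko and 0.92 in wt mTECs. Krt33b was higher by 1.12 in wt mTECs, and its ko value of 0.67 was not called. Krt26, Krt32 and Krt82 were at least 1.02-fold to 1.46-fold higher in ko CD80high cells, and Krt28 and Krt35 at least 1.02-fold and 1.41-fold higher in wt CD80high cells. Krt82 was called higher in wt mTECs too. Each of these 7 that was called lost a call in at least 1 genotype when a single array was left out. In ko mTECs this held for Krt26 and Krt32 (5 and 6 of the 8 arrays) and for Krt33a and Krt82 without replicate 1 of either ko group, with limma adjusted p up to 0.297 over all settings that lost a call. In wt mTECs it held without wt CD80high replicate 1 for Krt28, Krt33a and Krt33b, without wt CD80high replicate 2 for Krt28, Krt33b and Krt35, and without wt CD80low replicate 1 for Krt28 and Krt33b, with limma adjusted p up to 0.183 over all settings that lost a call. Krt26, Krt34 and Krt82 were above background on all 4 CD80high arrays and on no CD80low array. A second Krt36 probe, above background on 6 arrays, was not called in ko and was called higher in wt mTECs (limma adjusted p over probes of 0.0938 and 0.00611). Of the 3 Krt82 probes 1, above background on 2 arrays, was called in neither genotype. Another, above background on 4 arrays, was not called in ko and was called higher in wt mTECs (limma adjusted p over probes of 0.0752 and 0.0406). Krt33a and Krt33b are near-identical copies, and probe sequences were not used here to tell them apart. Krt90, outside the classes, was higher by 3.15 in ko and 3.22 in wt mTECs.

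The size of the change was smaller for dim keratins where the deposited values were used without background correction. Krt73 then changed by 3.02 in wt mTECs, against 4.31 with it, and Krt20 by 3.32 in ko and 3.18 in wt mTECs, while the bright Krt5 changed by -2.11 in ko and -2.47 in wt mTECs.

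Probes with 7 older hyphenated keratin symbols fall outside the rule and were examined apart. By accession, Krt2-1 corresponds to Krt1, the type II partner of Krt10. Its log2 levels were 5.45 and 6.38 in ko and 6.48 and 6.18 in wt CD80high cells, against 4.92 and 5.43 in ko and 5.81 and 4.88 in wt CD80low cells. It was not called in ko or wt mTECs (limma adjusted p over probes of 0.140 and 0.0579), and the probe was above background on 5 arrays. A second Krt12 probe changed by 2.85 in ko and 3.21 in wt mTECs, close to the first. Second probes for Krt8 and Krt13 lay above background on no array, although the probes used for these genes did.

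**Figure D3:**
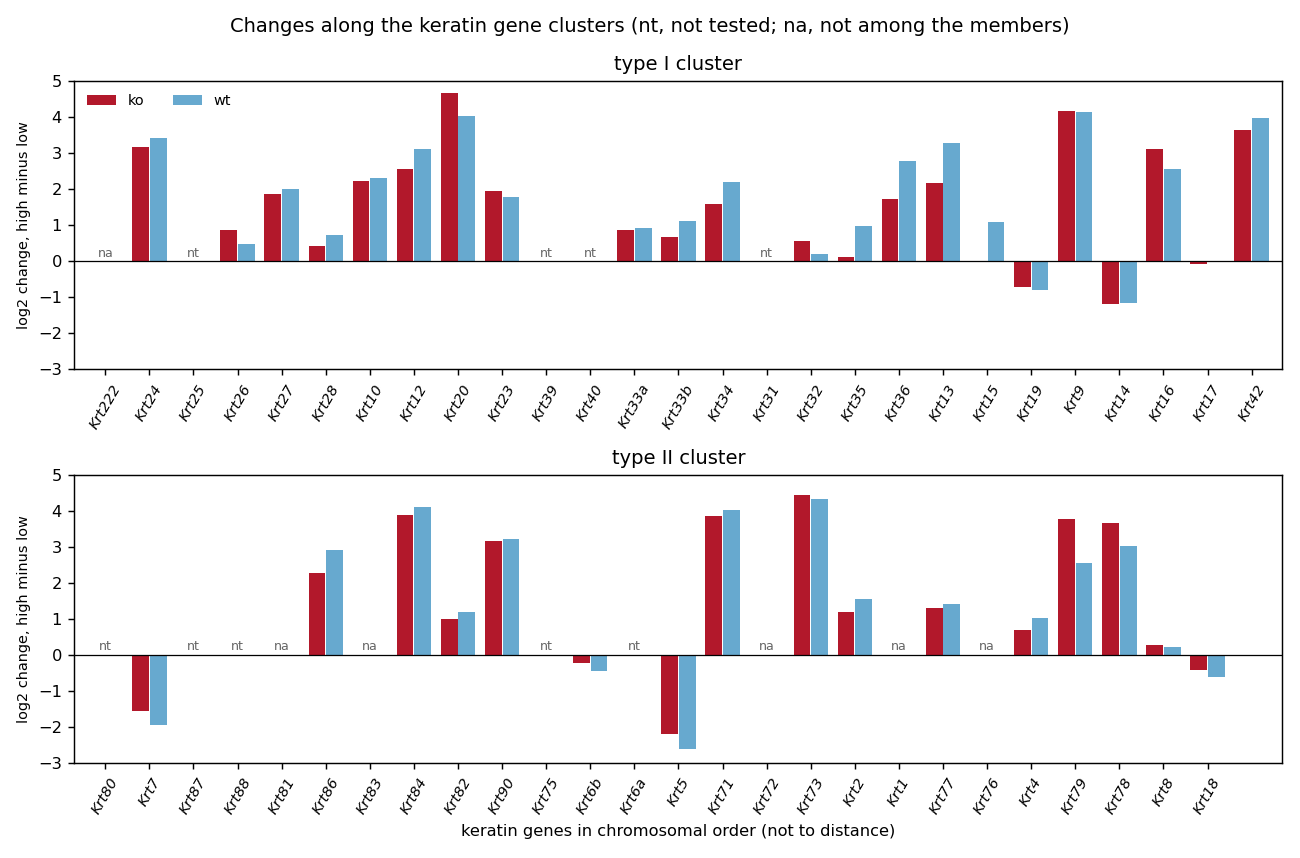
Log2 change between CD80high and CD80low mTECs (y axis, high minus low) for the keratin genes in their chromosomal order along the type I and type II clusters (x axis, not to distance), in ko (red) and wt (blue) mTECs; nt marks a gene not tested and na a symbol not among the members. Fitted values are drawn, also where a group had no array above background. Called decreases stand next to called increases, as for Krt9 between Krt19 and Krt14 and for Krt71 beside Krt5.

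Genes that neighbour each other in the clusters, counting keratin genes only, did not all change in 1 direction. In the type I cluster, Krt9, which was higher in CD80high cells, lies between Krt19 and Krt14, which were lower, and Krt14 is followed by Krt16, which was higher. In the type II cluster, Krt5, which was lower, is followed by Krt71, which was higher. Krt8 and Krt18, a type II and a type I keratin, lie next to each other at the end of the type II cluster, after Krt78, which was higher in both genotypes.

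The windows around the gene starts shared a letter string that the choice of members did not use. TATAAA, the core of a TATA box, stood on either strand in 17 of the 35 keratin windows (48.6%), against 13.6% of all 32851 RefSeq windows of the same length. On the gene's own strand, with its first base 35 to 20 bases before the start, it stood in 11 keratin windows (31.4%), against 603 of all windows (1.84%). That interval is the textbook place of a TATA box, but it was set after the positions had been seen. The 11 were Krt10, Krt12, Krt20, Krt25, Krt26, Krt28, Krt31, Krt32, Krt34, Krt40 and Krt73. They were spread over genes with differing behaviour: 5 of the 20 genes called higher in both genotypes that had a window, 0 of 3 called lower in both, 3 of 6 other tested genes and 3 of 5 not tested. GGGCGG, a GC box, stood in 2 keratin windows (5.7%), against 35.7% of all windows. The AP-2 string GCCNNNGGC stood in 17.1% against 16.6%, and the AP-1 string TGANTCA in 5.7% against 7.8%. All were searched on both strands, and each is a match of letters, not a binding site.

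Between ko and wt, 0 keratins were called in CD80high cells, in CD80low cells or averaged over both. In each of these comparisons 1 of all tested genes was called (0.00695%), the transporter gene Slc13a2, which was higher in ko cells by 6.46 in CD80high and 5.23 in CD80low cells. Before adjustment, 4 keratins, all lower in ko cells, had a p under 0.05 in the CD80high comparison, beside 1.56% of all tested genes in either direction. In the CD80low comparison 6 did, 3 higher and 3 lower in ko cells, beside 6.67%. Krt35, 1 of the 4 in CD80high cells, passed the filter through its wt CD80high arrays alone. With 2 arrays against 2, an exact permutation test of a single gene cannot go below p = 0.333.

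In CD80high cells, 30 of the 38 tested keratins had a lower mean in ko than in wt, as did 50.3% of all tested genes, and none of these differences was called. Without any 1 of the 4 CD80high arrays the count ran from 25, without ko replicate 2, to 32, without ko replicate 1. Over all 48 members with no filter, 37 were lower and the median log2 change was -0.15, against 49.7% and 0.00 over all genes. With 4 members at their bound and the 7 dim in both genotypes left out, that median was -0.16, and no value over all genes was taken in this way. By class, the ko mean was lower for 5 of 6 simple, 1 of 3 basal, 7 of 9 suprabasal, 4 of 5 stress and appendage and 13 of 14 hair keratins. The ko arrays lay wholly below the wt arrays for 15 keratins and wholly above for 2, beside 15.1% and 13% of all tested genes. Krt28 and Krt35, counted among the 30 and among the 15, passed the filter through their wt CD80high arrays alone. For them the filter itself favoured a lower ko value.

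The 4 keratins with the smallest p in CD80high cells were Krt35, Krt36, Krt13 and Krt10, each with a limma adjusted p of 1.00. Krt35, a hair cortex keratin, had log2 levels of 5.02 and 5.57 in ko against 5.77 and 6.02 in wt CD80high cells, a difference of -0.60 ± 0.225 (SE), with 1 of the 2 ko arrays above background. It passed the filter through the wt CD80high arrays alone, which favoured a lower ko value. Krt36 had 8.46 and 8.35 in ko against 8.79 and 9.06 in wt CD80high cells, a difference of -0.52 ± 0.204 (SE). Krt13 had 7.75 and 7.58 in ko against 8.60 and 8.34 in wt CD80high cells, a difference of -0.81 ± 0.320 (SE). Krt10 had 12.08 and 12.45 in ko against 12.58 and 13.11 in wt CD80high cells, a difference of -0.58 ± 0.240 (SE). The arrays of the genotypes did not overlap for any of these 4 genes.

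**Figure D4:**
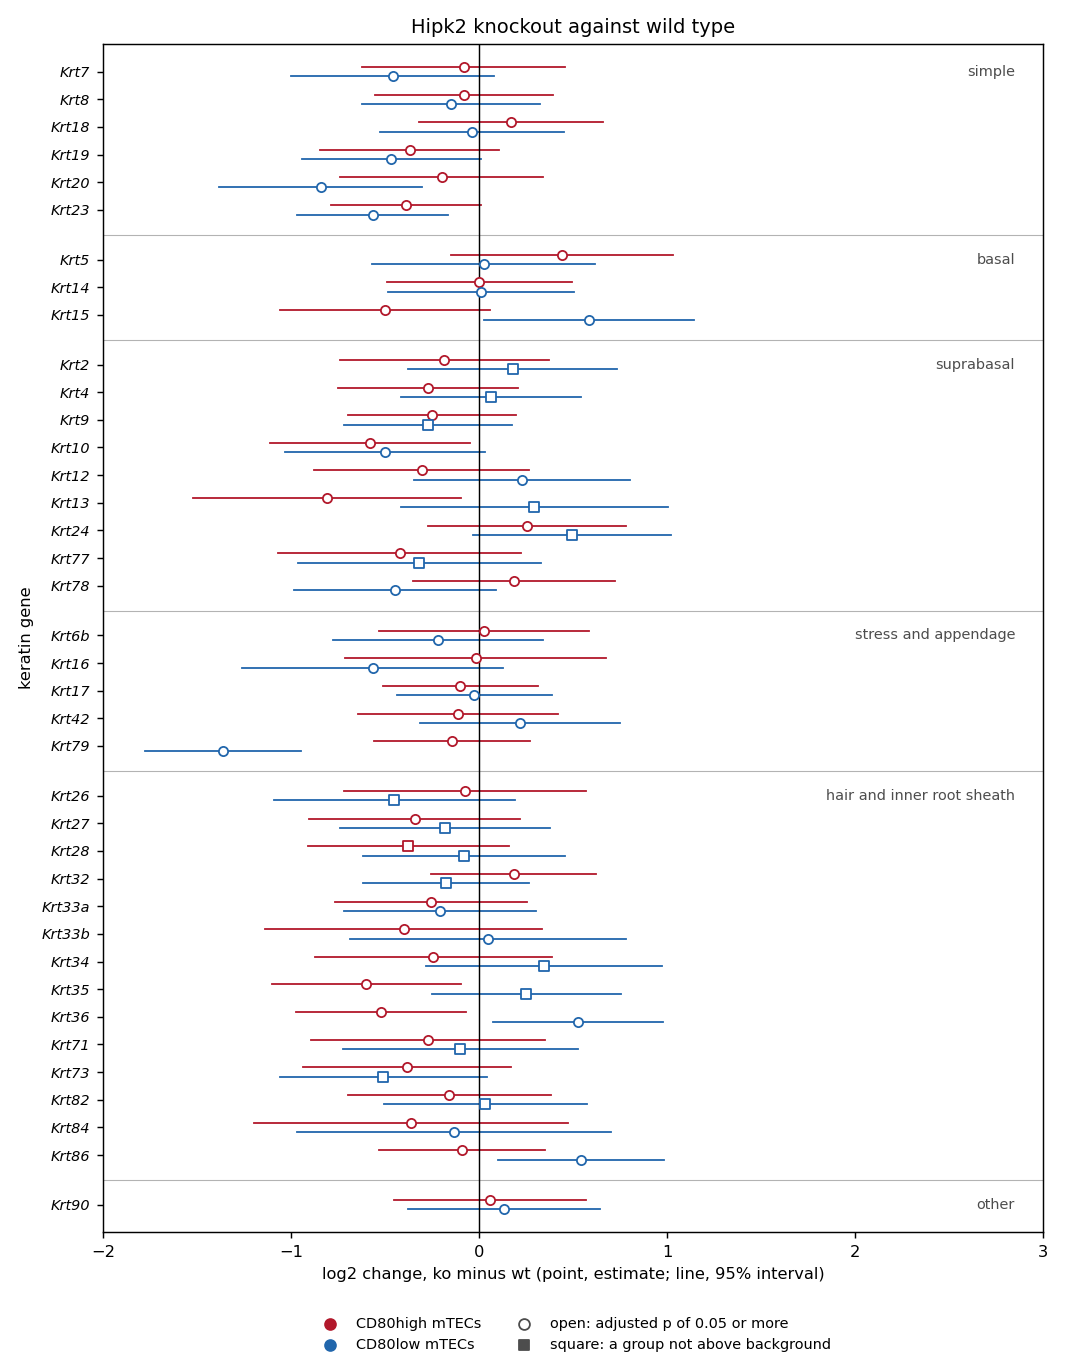
Log2 change between ko and wt mTECs (x axis) for the 38 tested keratins (y axis, grouped by class), in CD80high (red) and CD80low (blue) cells, with points for the estimates and lines for 95% intervals not adjusted for the number of genes. Squares mark fitted values in which 1 or both groups had no array above background by any probe of the gene. Krt86 in CD80low cells is drawn as a circle although the probe used lay below background on both wt CD80low arrays. All points are open, since no adjusted p was under 0.05, and Krt79 in CD80low cells lies farthest from zero at -1.36.

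In CD80low cells, the largest difference was that of Krt79. Its log2 levels were 5.76 and 5.63 in ko against 6.95 and 7.17 in wt CD80low cells, without overlap. The difference was -1.36 ± 0.187 (SE), with a limma adjusted p of 0.0614. The call depended on the model, as it passed with a trended and robust prior (adjusted p = 0.028), with a replicate block (adjusted p = 0.047) and with a replicate block within each subset (adjusted p = 0.0299). With only the CD80low arrays in the fit, the limma adjusted p was 0.747, and over all alternatives the difference ran from -1.54 to -0.74. In CD80high cells Krt79 differed by -0.14 ± 0.187 (SE). The difference between the subsets was 1.22 ± 0.264 (SE) with a limma adjusted p of 1.00.

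The next in CD80low cells was Krt20, with log2 levels of 5.45 and 5.24 in ko against 5.91 and 6.47 in wt CD80low cells, a difference of -0.84 (limma adjusted p = 0.384). Krt23 had 9.86 and 9.84 in ko against 10.38 and 10.45 in wt CD80low cells, a difference of -0.57 (limma adjusted p = 0.477), and in CD80high cells it differed by -0.39. Krt86 went the other way, with 5.79 and 5.92 in ko against 5.32 and 5.31 in wt CD80low cells, a difference of 0.54 (limma adjusted p = 0.602). The Krt86 probe used lay below background on both wt CD80low arrays, so that difference is not a measured size. All 6 simple keratins had a lower mean in ko CD80low cells, with log2 differences of -0.84 to -0.04, and all 3 basal keratins a higher one, with differences of 0.01 to 0.58, none of them called. For the 38 tested keratins together, 22 had a lower mean in ko CD80low cells, as did 48.2% of all tested genes. With no filter, 26 of the 48 members did, beside 48.6% of all genes. The count of 22 ran from 16, without ko CD80low replicate 1 or wt CD80low replicate 2, to 29, without ko CD80low replicate 2.

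Averaged over the subsets, the smallest p belonged to Krt79, at -0.75 (limma adjusted p = 0.141), followed by Krt23 at -0.48, Krt10 at -0.54 and Krt20 at -0.52, with adjusted p of 0.448, 0.695 and 0.753 by limma. In that average 7 keratins had an unadjusted p under 0.05, 1 higher and 6 lower in ko cells, beside 5.15% of all tested genes in either direction. The test of the difference between the subsets called 0 keratins and 0 of all tested genes (0%). Before adjustment it gave 6 keratins with a p under 0.05, 1 positive and 5 negative, beside 3.18% of all tested genes. The basal keratins Krt5 and Krt14 differed between ko and wt by 0.44 and 0.00 in CD80high cells and by 0.02 and 0.01 in CD80low cells. The 95% interval of the Krt5 difference in CD80high cells ran from -0.15 to 1.03, so these arrays do not show that the genotypes had alike levels.

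Marker genes of cell types that the sorts could hold differed between the subsets, and some of them between the replicates. Mature mTECs also transcribe genes restricted to single tissues, so these sums do not count cells. Beside the calls given for these lists, 22.1% of all tested genes were called higher and 18.8% lower in ko, and 22.4% and 19.4% in wt mTECs. The summed linear intensity of 10 thymocyte genes was 765 to 972 on the 4 CD80high arrays, against 14528 and 13301 on the CD80low arrays of replicate 1 (ko and wt) and 1920 and 1771 on those of replicate 2. Of the 8 thymocyte genes tested, 1 was called lower in CD80high cells of each genotype. The 6 fibroblast genes summed to 1533 to 2055 in CD80high against 8440 to 10899 in CD80low cells. Most of the fibroblast sum came from Dcn, with log2 levels of 10.28 to 10.80 in CD80high against 12.93 to 13.34 in CD80low cells. Of the 6 fibroblast genes, 3 were called lower in ko and 5 in wt CD80high cells, and 0 higher. Col1a1 had a slightly higher mean in ko CD80high than in ko CD80low cells. The 6 myeloid genes summed to 5407 to 6401 in CD80high against 635 to 1172 in CD80low cells. The 11 cornified keratinocyte genes, which include Ivl, Lor and Flg, summed to 14289 to 18269 in CD80high against 2394 to 5636 in CD80low cells, and 11 of 11 were called higher in ko and 10 of 11 in wt CD80high cells. In CD80low cells these cornified genes summed to 2394 and 3982 in ko and 3991 and 5636 in wt, with log2 differences of -1.35 to -0.09 between ko and wt and 0 called. The value of -1.35, for Lce1a1, is not a measured size, since neither ko CD80low array was above background. The 7 cortical TEC genes summed to 6273 to 8425 in CD80high against 3866 to 7553 in CD80low cells. Most of that sum came from Ccl25, with log2 levels of 12.53 to 12.96 in CD80high against 11.20 to 12.23 in CD80low cells. The mean log2 level of the 7 genes went the other way, at 6.68 to 7.10 in CD80high against 7.58 to 8.36 in CD80low cells. Of the cortical genes, 1 was called higher and 4 lower in ko and 1 higher and 3 lower in wt CD80high cells. The 6 erythroid genes summed to 1708 to 2999 in CD80high cells, against 4981 and 8788 on the CD80low arrays of replicate 1 (ko and wt) and 645 and 498 on those of replicate 2, and 2 of the 5 tested were called higher in CD80high cells of both genotypes. Of 4 B cell genes 2 were on the array, with sums of 447 to 668 in CD80high against 119 to 290 in CD80low cells. The 1 tested, Cd79b, was called higher, by 2.01 in ko and 1.29 in wt CD80high cells, and most of the sum came from it. Ms4a1 was not tested, and was above background on no CD80high array. It averaged log2 levels of 5.08 in ko and 4.70 in wt CD80high cells, against 5.13 and 5.37 in CD80low cells. The part of these other cells and genes in the keratin differences was not tested. Without both CD80low arrays of replicate 1, 26 tested keratins were called in ko (23 higher, 3 lower) and 32 in wt mTECs (26 higher, 6 lower). Of all tested genes, 21.0% were then called higher and 17.1% lower in ko, and 20.8% higher and 18.3% lower in wt mTECs.

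The partners of the filaments were counted from 2 lists. Of 18 anchors that tie keratin filaments to desmosomes and hemidesmosomes, 15 were tested, and in CD80high cells 1 was called higher and 4 lower in ko mTECs, and 1 higher and 6 lower in wt mTECs, beside 22.1% higher and 18.8% lower among all tested genes in ko and 22.4% and 19.4% in wt mTECs. Their median log2 change was -0.51 in ko and -0.57 in wt mTECs, against -0.03 and -0.02 over all tested genes. Dst and Itgb4, parts of hemidesmosomes that hold basal cells to the basement membrane, changed by -2.77 and -1.54 in ko and by -2.88 and -1.87 in wt mTECs. Col17a1, another hemidesmosome component, went up by 1.06 in ko and 1.60 in wt mTECs. Of 13 transcription factors that act on keratin genes, 11 were tested, and 4 were called higher and 4 lower in each genotype, beside the same shares of all tested genes. Trp63, the regulator of basal epithelial identity, changed by -2.28 in ko and -1.86 in wt mTECs on the log2 scale. Dlx3, Ovol1, Grhl3 and Foxn1 were higher. Hoxc13 and Msx2, also on the list, were above background on no array and were not tested. Dlx3 rose by 2.23 in ko and 2.47 in wt CD80high cells, and Foxn1 by 1.04 in ko and 0.85 in wt CD80high cells. Klf4, Klf5, Sox9, Lef1 and Tfap2a, of the same list, had lower means in CD80high cells of both genotypes. Sox9 averaged log2 levels of 11.82 in ko and 11.86 in wt CD80high cells, against 12.69 and 12.93 in CD80low cells. Klf4 averaged 9.99 in ko and 9.74 in wt CD80high cells, against 10.53 and 10.93 in CD80low cells. Gata3 had a higher mean in ko CD80high cells only. Between ko and wt, 0 anchors and 0 of these factors were called in either subset.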

How the data were processed

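Per the labels, total RNA of sorted mTECs was checked on a Bioanalyser, and 200 ng was amplified, labelled with biotin and hybridised to Illumina bead arrays, 2 biological replicates per group. The deposited values are probe intensities on a linear scale; the authors' scaling method was not known here. A non-normalised table with 16 columns that no label ties to a sample was not used, and neither were its detection p-values.

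Normexp background correction (limma 3.58.1, R 4.3.3, offset 16) was applied to the intensities, which were quantile-normalised over the 8 arrays and log2-transformed. A probe was tested if it exceeded the array's background (mode plus the normal 95th percentile of the spread below the mode) on both arrays of at least 1 group; 23378 probes and 14392 genes remained, each gene by its brightest tested probe. Of all probes, 35667 carried 1 symbol, 0 several and 10422 none. One limma fit with a mean per group (4 residual and 6.15 prior degrees of freedom) gave every comparison, two-sided, adjusted by Benjamini-Hochberg over all tested genes. P-values measure the spread between these arrays, and the labels do not say whether equal replicate numbers share an animal, so no replicate term was used in the results given first. The fit was tested on simulated data. An array has no read depth, so the number of arrays limits the precision.

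The members, classes, lists and tests were chosen with earlier results of these data known. Values are given for fixed keratins of each class, for called keratins (in full for up to 12 with the largest change), for the 4 keratins with the smallest p in each ko against wt comparison, for hair keratins above background, and for Hipk2, Slc13a2, Cd80, Aire and the leading members of the lists; Lor and Flg were named after their values were seen. Alternatives covered the background step, filter, variance prior, probe choice, replicate block and leaving out arrays. Promoter windows and gene order came from RefSeq tables of GRCm38.p6.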

Additional observations from a re-analysis of the deposited data

Results flagged for a closer look

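For 3 keratins both ko arrays lay on opposite sides of both wt arrays in the 2 subsets, above them in CD80low cells and below them in CD80high cells. The share of all tested genes with this pattern was not counted, so the number of 3 is not shown to be unusual. In CD80high cells alone, the ko arrays lay wholly below the wt arrays for 15.1% of all tested genes. The difference between the subsets (ko against wt in CD80high minus ko against wt in CD80low) was tested in the limma fit and passed for none of them after adjustment. It was -1.08 on the log2 scale for Krt15 (unadjusted p = 0.012, limma adjusted p = 1.00). For Krt36 it was -1.05 (unadjusted p = 0.00444, limma adjusted p = 1.00). For Krt35 it was -0.851 (unadjusted p = 0.0233, limma adjusted p = 1.00), with levels that were above background on 1 of the 2 ko CD80high arrays and on no CD80low array. Krt35 passed the filter through its wt CD80high arrays alone.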

How the results depend on the processing

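Across 19 alternatives per comparison within a genotype or subset and 18 for the averaged comparison and the interaction, the count of called keratins stayed within 1.5 times the value reported for CD80high against CD80low (25 to 31 in ko and 28 to 33 in wt mTECs), and leaving out 1 array gave 25 to 30 in ko and 28 to 32 in wt. In every alternative run, 24 of the 30 calls in ko and 26 of the 33 in wt mTECs were kept; Krt4, Krt19, Krt26, Krt32, Krt33a and Krt82 (ko) and Krt15, Krt18, Krt19, Krt28, Krt33a, Krt33b and Krt35 (wt) lost the call in at least 1. For ko against wt, 0 keratins were called in CD80high cells, averaged and in the interaction under every alternative, and 0 when 1 array was left out in CD80low cells. In CD80low cells 1 keratin, Krt79, was called with a trended and robust prior, with a replicate block and with a replicate block within each subset; the cause was not tested. Those settings called 12, 14 and 51 of all genes. The replicate number marks no stated pairing; deviations of equal numbers correlated at 0.512 between ko and wt CD80low, at 0.473 between ko and wt CD80high and at 0.0677 to 0.140 across subsets, and the block called 30 keratins in ko and 33 in wt mTECs for CD80high against CD80low (31 and 33 within each subset).

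Directions reversed only for keratins with changes near zero, none of them called under that setting. Krt17 in wt mTECs moved to 0.031 with deposited values, and ran from -0.092 to 0.061 with 1 array left out (0.011 without wt CD80high replicate 1). Krt17 in ko mTECs was 0.00045 with deposited values. Krt15 in ko mTECs ran from -0.33 without ko CD80low replicate 1 to 0.32 without ko CD80low replicate 2 (0.090 without ko CD80high replicate 2). Counts of keratins with a lower ko mean were added as an alternative chosen after seeing the data. Signal over background limits the keratins with neither CD80low array above background, whose CD80high level gives only a bound, and 2 arrays per group limit every comparison.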

Other observations

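Probes with older keratin symbols that could not be matched to a current name also differed between the subsets. The probe named Krt2-19 had log2 levels of 8.05 and 7.71 in ko and 8.22 and 8.11 in wt CD80high cells, against 4.83 and 5.20 in ko and 5.15 and 4.76 in wt CD80low cells. It was above background on the CD80high arrays only, and was at least 5.53-fold higher in ko and at least 6.83-fold higher in wt CD80high cells (limma adjusted p over probes of 8.94e-06 and 4.63e-06). Krt1-5 changed by 0.96 in ko and 1.28 in wt mTECs, and Krt1-2 was at least 1.28-fold higher in ko and at least 1.53-fold higher in wt CD80high cells, all called. Between ko and wt none of these was called.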
